A study of Saccharomyces cerevisiae with 28 samples.

Results

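Baker's yeast HS was set against baker's yeast LS (both Saccharomyces cerevisiae) at 60 min of fermentation in LF medium that held 30% sucrose. The comparison covers the 5498 S. cerevisiae probe sets with a gene symbol (5449 genes), of 10928 probe sets on the array, and rests on 4 of the series' 28 arrays, 2 of HS and 2 of LS. Medium, sucrose concentration and time were the same in both groups, and the labels separate the groups by the name of the yeast alone. They give no genotype and do not say what HS, LS or LF stands for. Poly(A) RNA taken from total RNA of a hot phenol extraction was labelled with biotin and read on an Affymetrix array designed for S. cerevisiae together with a fission yeast, Schizosaccharomyces pombe. The other arrays hold both yeasts at 0, 5, 10, 20, 40 and 50% sucrose, 2 arrays per group, and enter here through the estimate of the spread and where differences between the yeasts are set against each other. Each deposited value is scaled to the level that its gene usually had on these arrays, so arrays can be compared within a gene but genes cannot be compared with each other. The labels do not say whether replicate arrays had cultures of their own, and the p-values therefore describe the spread among these arrays alone, which may be technical.

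Yeast splits sucrose outside the cell with invertase and takes up the glucose and fructose through a family of hexose transporters. While these sugars are plentiful, glucose repression keeps down the genes for other sugars, for respiration and for storage carbohydrates. A high sugar concentration also draws water from the cell, and the HOG (high osmolarity glycerol) pathway answers by raising the synthesis and the uptake of glycerol. Genes for poor nitrogen sources, such as allantoin and urea, are under nitrogen catabolite repression and are transcribed when preferred sources run short.

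The LS arrays differed from each other more than the HS arrays did, and the second LS array stood apart by its S. pombe signal. Over the 1746 S. pombe probe sets with a symbol, which serve as a background here, the median ratio was 0.427 and 0.169 on the HS arrays, 0.212 on the first LS array and 1.59 on the second. A median above 1 was found on 6 arrays of the series, all of them LS arrays, and the other 22 arrays had medians of 0.119 to 0.994. Across probe sets, log2 ratios of the HS arrays correlated with r = 0.557, and those of the LS arrays with r = 0.0152. These correlations are across probe sets, which are not independent replicates. The HS mean lay on the same side of both LS arrays for 3381 probe sets (61.5%). The part of the second LS array's S. pombe signal in the differences was not tested, and values against the first LS array alone stand beside those with both for the called genes and for the lists.

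In the fit of all 28 arrays a few genes were called between HS and LS at 30% sucrose. Lower in HS were a glycerol importer, a galactose enzyme, a hexose transporter, a biotin precursor transporter and a respiratory chain subunit. An asparagine synthetase and a ribonucleotide reductase subunit were higher. These calls depended on the arrays and the fit, and in a fit of the 4 arrays at 30% alone 0 probe sets were called. With the spread pooled over all 28 arrays, 8 probe sets passed an adjusted p of 0.05 in limma (0.146% of those tested), 2 higher (0.0364%) and 6 lower (0.109%) in HS. At an unadjusted p of 0.05 there were 445 (8.09%), 142 higher (2.58%) and 303 lower (5.51%). With the first LS array alone, in a fit of 27 arrays, 1 probe set was called (0.0182%), higher in HS, and 183 (3.33%) passed the unadjusted threshold. Without all 6 LS arrays of raised S. pombe signal, in a fit of 22 arrays, 72 were called (1.31%), 44 higher (0.8%) and 28 lower (0.509%). The shares of that fit are the background for the list members given below as called in it. In these fits of 27 and 22 arrays the first LS array stands alone at 30% and is assumed to vary like the other groups. In the fit of 22 arrays LS keeps 2 arrays at 40% sucrose alone, so the spread comes from the HS groups and from LS at 40%. Array weights, which rise as the arrays of a group lie closer together, were 0.236 to 0.443 for the LS groups other than 40%, 2.90 for LS at 40% and 1.11 to 3.96 for the HS groups, so the calls of that fit rest on a spread smaller than that of most LS groups. A fit of all 28 arrays with a term for raised S. pombe signal, chosen after seeing the data, called 51 (0.928%), 25 higher (0.455%) and 26 lower (0.473%). Quantile normalization, which changes how each array is scaled, called 135 probe sets, 65 higher and 70 lower, against 2 higher and 6 lower without it. Since RNA was taken from whole cultures, fewer cells of a kind and less RNA per cell cannot be told apart.

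STL1 encodes the transporter that takes up glycerol together with protons. Its ratio was 0.153 and 0.795 on the HS arrays and 6.18 and 16.4 on the LS arrays, a log2 difference of -4.85 ± 0.86 (SE, n = 2 arrays per group, adjusted p = 0.0225). Both HS arrays were below both LS arrays, and their mean was 17.7-fold below the first. GAL10, the epimerase of galactose use, had ratios of 0.194 and 0.297 in HS and 4.97 and 11.8 in LS, a difference of -5.00 ± 0.83 (adjusted p = 0.0225). The HS arrays lay close together and below both LS arrays, with a mean 20.7-fold below the first. HXT17, a member of the hexose transporter family, read 0.104 and 0.463 in HS and 6.05 and 13.8 in LS, a difference of -5.38 ± 0.96 (adjusted p = 0.0225). Its probe set is of a type (s_at) that can read related sequences, so the value may be shared with close relatives of the gene.

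QCR8 encodes a subunit of the respiratory complex that passes electrons from ubiquinol to cytochrome c. Next to YOL159C-A below, it had the widest gap of all probe sets, with ratios of 0.21 and 0.151 in HS and 6.64 and 42.6 in LS, a difference of -6.56 ± 1.11 (adjusted p = 0.0225). BIO5, which carries a precursor of biotin across the plasma membrane, read 0.175 and 0.263 in HS and 7.16 and 11 in LS, a difference of -5.37 ± 1.02 (adjusted p = 0.0335). For both genes the groups did not overlap, and the HS mean lay below the first LS array by 37.3-fold for QCR8 and by 33.4-fold for BIO5. The largest difference of all probe sets with both LS arrays belonged to the small open reading frame YOL159C-A, with ratios of 0.0427 and 0.0341 in HS and 5.03 and 15.5 in LS, a difference of -7.85 ± 1.36 (adjusted p = 0.0225).

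ASN1, an asparagine synthetase, went the other way, with ratios of 3.88 and 2.89 in HS and 0.142 and 0.33 in LS, a difference of 3.95 ± 0.77 (adjusted p = 0.0354). RNR3, a large subunit of ribonucleotide reductase, read 3.76 and 2.24 in HS and 0.246 and 0.344 in LS, a difference of 3.32 ± 0.63 (adjusted p = 0.0335). For both genes the HS arrays were above both LS arrays. DIP5, the permease for glutamate and aspartate, was at 3.18 and 2.52 in HS and at 0.0239 and 0.474 in LS. It missed the threshold with both LS arrays, at 4.73 ± 1.0 and an adjusted p of 0.0695, and its LS arrays lay far apart. Against the first LS array alone its difference was 6.89, which is 118-fold. That rests on the 1 ratio of 0.0239, where DIP5 read 0.243 to 2.65 on the other LS arrays of the series.

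**Figure D1:**
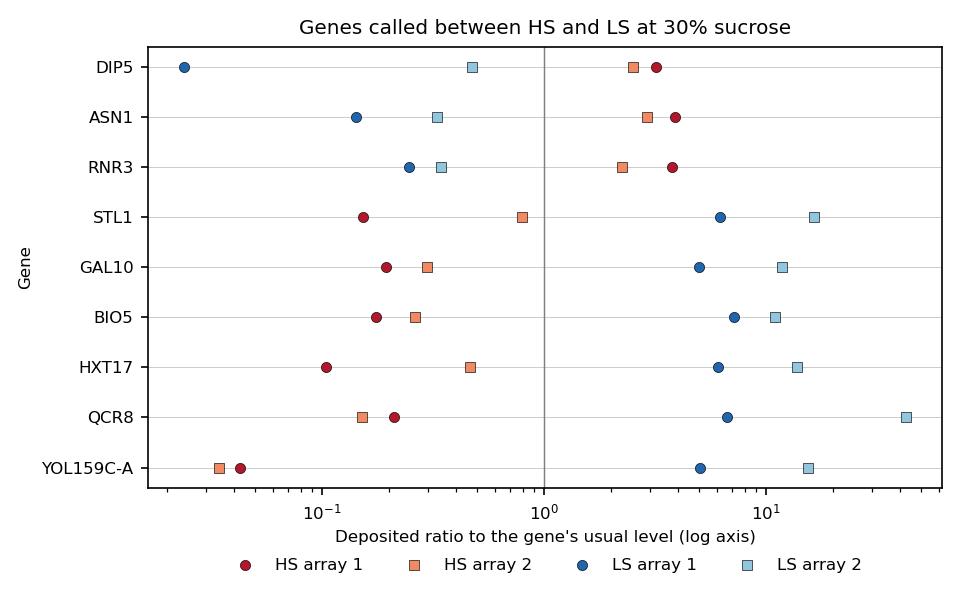
Ratio of each called gene (rows) on the 4 arrays at 30% sucrose, on a log axis, with circles for the first and squares for the second array of a yeast. HS arrays (red and orange) lie above both LS arrays (blue) for DIP5, ASN1 and RNR3, and below both for the other genes, with YOL159C-A at 0.0427 and 0.0341 in HS.

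All 8 genes called with both LS arrays kept their direction against the first LS array alone, and for all 8 both HS arrays lay beyond it. The first LS array and both HS arrays are part of the fit that called these genes, so this is no separate support for the calls. Their differences against that array were -7.04 for YOL159C-A, -5.22 for QCR8, -5.06 for BIO5, -4.79 for HXT17, -4.37 for GAL10, -4.15 for STL1, 3.56 for RNR3 and 4.56 for ASN1. In the fit of 27 arrays 0 of the 8 stayed under the threshold, with adjusted p from 0.138 (ASN1) to 0.263 (STL1), and DIP5 was the only gene there. In the fit of 22 arrays 7 of the 8 were called, and YOL159C-A was not (adjusted p = 0.0842). With the term for raised S. pombe signal 8 of the 8 were called. That fit and the fit of 22 arrays shared 31 genes, and of the 72 called in the latter, 60 had HS arrays that did not overlap either LS array. Over all probe sets, both HS arrays were above both LS arrays for 1260 (22.9%) and below both for 1263 (23%). These shares are the background for the counts of list members below. Both were above the first LS array for 43.9% and below it for 32.8%, and above the second for 39.3% and below it for 51%.

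Most genes for the use of galactose, sucrose and maltose had lower values in HS, while few passed the test. Of 8 measured genes of the galactose regulon, 7 were below both LS arrays and 1, GAL80, was above both. The median difference of this list was -2.04, close to the same against either LS array (-2.06 and -2.13), where the median of all probe sets was -0.08. GAL10 was called in the fit of 28 arrays, GAL10 and GAL1 in that of 22, and GAL10, GAL1 and GAL2 with the S. pombe term. GAL1, the galactokinase, read 0.527 and 0.351 in HS and 2.24 and 11.2 in LS, -3.54 ± 0.83 with both LS arrays (adjusted p = 0.107) and -2.38 ± 0.51 in the fit of 22 arrays (adjusted p = 0.0454). GAL2, the galactose permease, was at 0.413 and 0.725 in HS and at 11.3 and 10.5 in LS, a difference of -4.31 ± 1.15 (adjusted p = 0.174). Its LS arrays lay close together, and the HS mean was 20.6-fold below the first. GAL80, the repressor of the regulon, read 0.95 and 0.858 in HS and 0.664 and 0.244 in LS. GAL7, GAL10 and GAL1 neighbour each other on chromosome II in the RefSeq annotation of S. cerevisiae, with 1 non-coding gene among them, and GAL7 differed less (-1.94 ± 1.27, adjusted p = 0.746). Genes named here beyond those called in the fits of 28 and 27 arrays and a set of 23 picked genes were chosen from the lists after their values were seen.

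Of 10 measured genes for sucrose and maltose use 7 were below both LS arrays and 0 above, with a median of -2.49 (-2.09 against the first LS array and -2.29 against the second). None was called in the fit of 28 arrays, where 6 were lower at an unadjusted p of 0.05, and 1, SUC2, was called in that of 22. SUC2, the invertase that splits sucrose, read 0.215 and 0.352 in HS and 3.17 and 0.83 in LS. The HS arrays lay below both, with a difference of -2.56 ± 0.97 (adjusted p = 0.412), and of -3.53 ± 0.65 in the fit of 22 arrays (adjusted p = 0.0265). The maltose permease MAL31 was at 0.0939 and 0.334 in HS and at 2.25 and 2.8 in LS, a difference of -3.82 ± 0.95 (adjusted p = 0.133), and was called with the S. pombe term (adjusted p = 0.0114). MAL11, a transporter of maltose and other glucosides, had ratios of 0.322 and 0.411 in HS against 3.35 and 1.66 in LS, a difference of -2.70 ± 1.06 (adjusted p = 0.446). Maltose genes are repeated near chromosome ends, so related copies may share signal.

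Among 21 genes of hexose transport and glucose sensing 13 were below both LS arrays and 2 above, with a median of -1.54 (-1.25 and -2.12 against the first and second LS array). HXT17 was the 1 gene of this list that was called, in the fits of 28 and 22 arrays. HXT2, a transporter induced by little glucose, was at 0.114 and 0.749 in HS and at 1.65 and 1.68 in LS, a difference of -2.51 ± 1.03 (adjusted p = 0.476). HXT7, of high affinity, read 0.18 and 0.962 in HS and 1.27 and 4.5 in LS, -2.52 ± 0.90 (adjusted p = 0.358), from a probe set that can read related sequences. HXT5 read 0.452 and 1.2 in HS and 1.75 and 3.21 in LS, -1.68 ± 0.75 (adjusted p = 0.546). In these genes the groups did not overlap, but the HS arrays differed several-fold from each other. The low-affinity transporters HXT1 and HXT3 had ratios near 1 on most arrays, with differences of -0.32 ± 0.83 (adjusted p = 0.928) and 0.57 ± 0.69 (adjusted p = 0.839). For HXT1 the sign turned to 0.20 against the first LS array. The glucose-repressed regulator MTH1, which holds down hexose transporter genes, was at 0.427 and 0.938 in HS and at 2.83 and 1.84 in LS, a difference of -1.85 ± 0.80 (adjusted p = 0.535).

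Of the glycerol and osmotic stress genes many had lower values in HS, and STL1 fell in the test. Of 13 genes of glycerol metabolism and transport 8 were below both LS arrays and 0 above, with a median of -1.18 (-1.49 and -0.97), and STL1 was the gene called in the fits of 28 and 22 arrays. GPD1, which makes the first committed step to glycerol, read 0.305 and 0.714 in HS and 2.55 and 6.04 in LS, a difference of -3.07 ± 0.88 (adjusted p = 0.197). The HS arrays were below both LS arrays, and the gene was called under quantile normalization (-3.43, adjusted p = 0.0258). The dihydroxyacetone kinase DAK2 stood at 0.103 and 0.0815 in HS, at 10.8 on the first LS array and at 0.536 on the second. Its LS arrays differed by more than the HS arrays differed from the second, and its difference was -4.72 ± 1.74 (adjusted p = 0.395). GPP2, the glycerol phosphatase of the osmotic response, was nearly level, at 1.41 and 1.81 in HS and 1.65 and 1.74 in LS. The glycerol channel FPS1 overlapped as well, at 0.854 and 1.07 in HS and 1.4 and 0.719 in LS (-0.07 ± 0.92, adjusted p = 0.99).

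Of 18 targets of the HOG pathway 12 were below both LS arrays, 0 above, and 17 below the first. The entries HOR2 and ENA1 on the list of 20 were not matched to a probe set by name, so the counts leave these entries out. HOR2 is another name of GPP2, which was measured and is given above as nearly level, with HS and LS arrays that overlapped. The median was -2.18, and it was -1.76 against the first LS array and -3.22 against the second. In the fit of 28 arrays 0 were called and 7 were lower at an unadjusted p of 0.05. In that of 22 arrays 1 was called, RTC3 (-3.32 ± 0.72, adjusted p = 0.0483), against a background of 0.509% called lower. The aldehyde reductase GRE2 was at 0.729 and 1.25 in HS and at 4.76 and 11.7 in LS, a difference of -2.97 ± 0.80 (adjusted p = 0.174). GRE1, a small hydrophilin of osmotic stress, was at 0.102 and 0.136 in HS and at 1.14 and 1.92 in LS, a difference of -3.65 ± 1.03 (adjusted p = 0.191). Both LS arrays were on the high side of both HS arrays for GRE1 and GRE2. The catalase CTT1 read 0.227 and 0.413 in HS and 1.51 and 3.34 in LS, -2.87 ± 1.13 (adjusted p = 0.444). HSP12, a small membrane-protecting stress protein, was closer, at 0.674 and 0.954 in HS and 1.09 and 3.11 in LS, -1.20 ± 0.87 (adjusted p = 0.773).

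Storage carbohydrate genes ran the same way in their values. Of 10 trehalose genes 7 were below both LS arrays and 0 above (median -1.20, and -1.09 against the first LS array), and of 11 glycogen genes 8 were below and 0 above (median -1.36, and -1.31 against the first). TPS1, the trehalose phosphate synthase, read 0.594 and 0.336 in HS and 1.64 and 2.89 in LS, a difference of -2.29 ± 0.81 (adjusted p = 0.358), and was called under quantile normalization (-2.65, adjusted p = 0.0216). TSL1, a regulatory subunit of the same complex, was at 0.45 and 0.367 in HS and at 1.01 and 2.08 in LS, -1.84 ± 0.96 (adjusted p = 0.673). The glycogen branching enzyme GLC3 was at 0.293 and 0.624 in HS and at 3.12 and 4.66 in LS, -3.16 ± 0.98 (adjusted p = 0.249). Of both lists the 1 gene called, in the fit of 22 arrays, was the glycogen primer GLG2 (-2.38 ± 0.49, adjusted p = 0.0423), and 0 were called in that of 28, where 2 trehalose and 2 glycogen genes were lower at an unadjusted p of 0.05.

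A share of the genes for respiration and for non-fermentable carbon had lower values in HS. Of 36 genes of the respiratory chain and the ATP synthase 12 were below both LS arrays (33.3%) and 2 above (5.56%). Of all probe sets 23% were below both and 22.9% above. Within the complex of QCR8 the subunits differed: QCR2, QCR10 and CYT1 were also below both LS arrays, QCR6, QCR9 and RIP1 overlapped, and QCR7 was above both. QCR2 was at 0.206 and 0.331 in HS and at 2.45 and 2.31 in LS, a difference of -3.19 ± 1.12 (adjusted p = 0.354). The cytochrome CYT1 was at 0.225 and 0.159 in HS and at 1.42 and 0.587 in LS, and was called in the fit of 22 arrays (-2.91 ± 0.59, adjusted p = 0.0397). CYC7, an isoform of cytochrome c, read 0.102 and 0.621 in HS and 2.65 and 9.46 in LS, -4.32 ± 1.12 (adjusted p = 0.156). The list's median was -0.96 with both LS arrays and -0.39 with the first. CAT8, an activator of gluconeogenesis genes, was at 0.075 and 0.149 in HS and at 1.64 and 4.13 in LS (-3.96 ± 0.85 in the fit of 22 arrays, adjusted p = 0.0454). Of 16 gluconeogenesis and glyoxylate cycle genes 10 were below both LS arrays and 0 above (median -0.84, and -0.97 against the first LS array), and of 15 genes of peroxisomal fatty acid oxidation 11 were below and 1 above (-1.33 and -1.01). FBP1, the glucose-repressed fructose bisphosphatase, overlapped, at 0.357 and 1.06 in HS and 1.17 and 0.792 in LS (-0.64 ± 1.10, adjusted p = 0.889). ADH2, the alcohol dehydrogenase that consumes ethanol, overlapped too (-0.75 ± 0.73, adjusted p = 0.81).

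**Figure D2:**
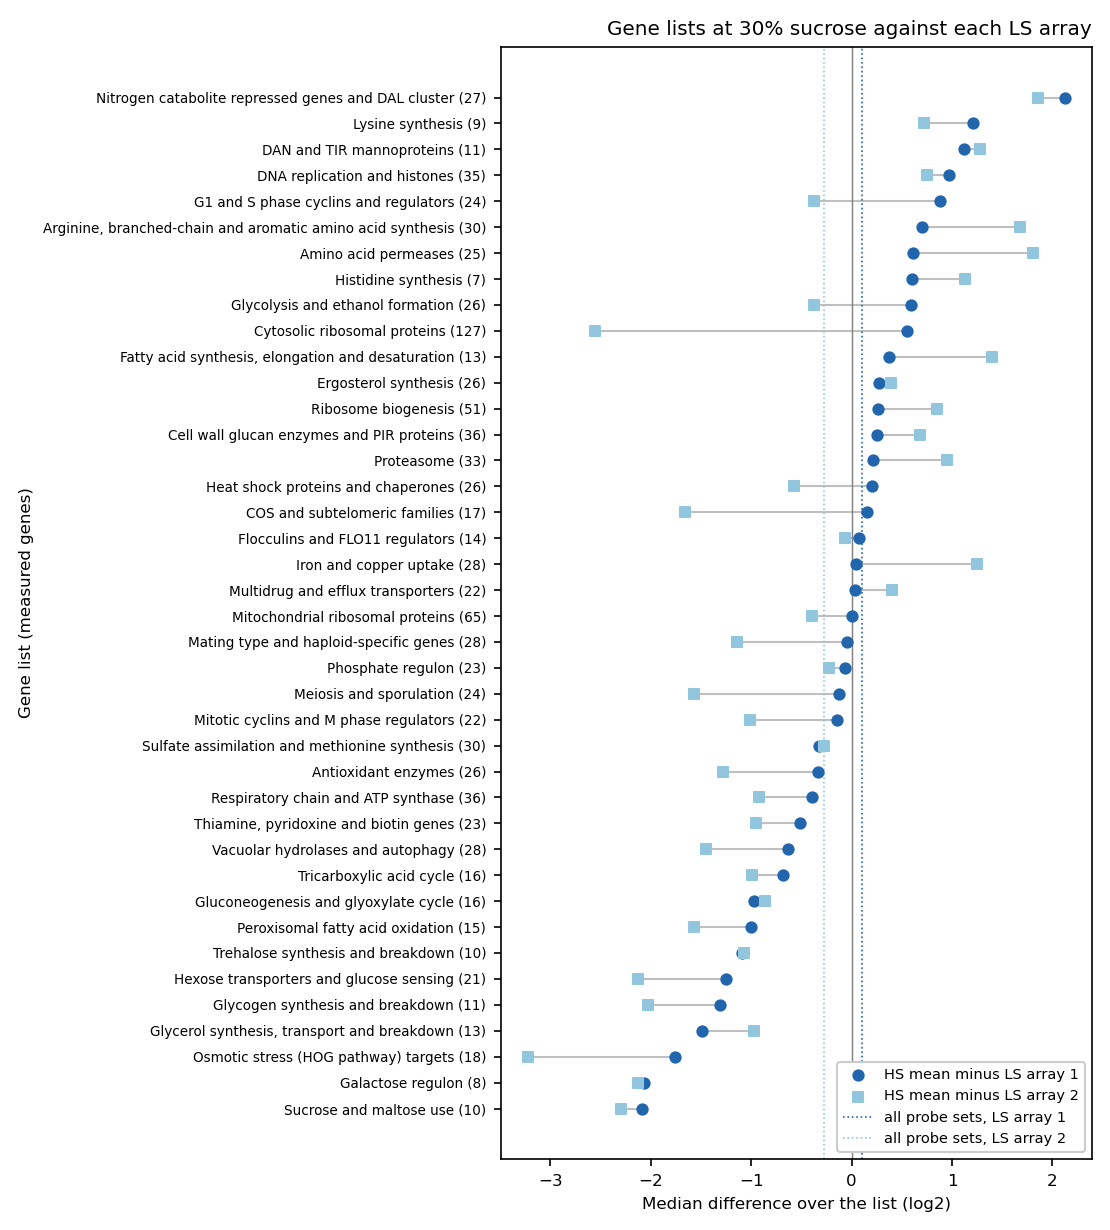
Median HS minus LS difference (log2) of each gene list, with the number of measured genes in brackets, against the first LS array (dark circles) and the second (light squares), and dotted lines for all probe sets (0.11 and -0.28). The nitrogen list lies highest against both (2.13 and 1.86), sucrose and maltose use is low against both (-2.09 and -2.29), and the ribosomal proteins have the widest gap between the LS arrays (0.55 and -2.55).

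Nitrogen catabolite repressed genes were the list that stood highest in HS. Of 27 measured genes 22 were above both LS arrays and 1, CAR1, was below both. The median difference was 2.09, and it was 2.13 against the first LS array, 1.86 against the second and 1.96 with the S. pombe term. The fit of 28 arrays called 0 of them, with 13 higher at an unadjusted p of 0.05. The fit of 22 arrays called 9, all higher, against 0.8% of all probe sets, and the fit with the S. pombe term called 8, all higher, against 0.455%. The plot of nitrogen genes by array shows that the first LS array was often the lowest of the 4, with the second between it and HS.

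The DAL genes, for the breakdown of allantoin, carried much of this pattern. DAL1, DAL4, DAL2, DCG1, DAL7 and DAL3 stand next to each other on chromosome IX in the RefSeq annotation, with 0 other genes between them. DAL2, allantoicase, was at 5.42 and 3.64 in HS and at 0.0967 and 0.753 in LS. The groups did not overlap, and the difference was 4.04 ± 0.97 with both LS arrays (adjusted p = 0.115) and 5.52 ± 0.75 in the fit of 22 arrays (adjusted p = 0.0044). DAL1, allantoinase, read 6.17 and 4.46 in HS and 0.293 and 0.575 in LS, a difference of 3.68 ± 0.81 (adjusted p = 0.084) and of 4.16 ± 0.87 in the fit of 22 arrays (adjusted p = 0.0425). DAL4, the allantoin permease, was at 2.2 and 2.1 in HS and at 0.05 and 0.772 in LS, 5.43 ± 0.72 in the fit of 22 arrays (adjusted p = 0.00401). DCG1, a gene of unknown function in the cluster, read 3.99 and 4.3 in HS and 0.143 and 0.657 in LS, 4.86 ± 0.70 in the same fit (adjusted p = 0.00669). DAL7, a malate synthase, was at 2.69 and 2.36 in HS and at 0.192 and 0.71 in LS, 3.71 ± 0.70 there (adjusted p = 0.0291). DAL3, ureidoglycolate lyase, had LS arrays that lay close together, at 1.05 and 1.11, under HS arrays of 4.18 and 5.05, a difference of 2.13 ± 0.46 in that fit (adjusted p = 0.0479). All 6 genes of the cluster were therefore called in the fit of 22 arrays, and their HS arrays lay above both LS arrays.

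Regulators and transporters of the same regime had like values. DAL80, a repressor that is itself under nitrogen control, was at 5.79 and 5.15 in HS and at 0.11 and 0.903 in LS, 4.12 ± 1.40 with both LS arrays (adjusted p = 0.33) and 5.63 ± 1.08 in the fit of 22 arrays (adjusted p = 0.0295). DUR3, the urea transporter, came closest to a call with all arrays, at 4.15 and 3.65 in HS and 0.267 and 0.571 in LS, a difference of 3.32 ± 0.68 (adjusted p = 0.0542). It was called in the fits of 22 arrays (adjusted p = 0.0213) and with the S. pombe term (adjusted p = 0.00804). The ammonium permease MEP3 stood at 3.31 and 4.58 in HS and at 0.311 and 0.331 in LS, 3.6 ± 0.99 (adjusted p = 0.177), with LS arrays that nearly coincide. MEP2, the ammonium permease of high affinity, was at 1.47 and 1.2 in HS and at 0.13 and 0.731 in LS, 2.11 ± 0.84 (adjusted p = 0.453). UGA2, an enzyme of gamma-aminobutyrate use, read 2.01 and 3.52 in HS and 0.141 and 0.126 in LS, 4.32 ± 1.24 (adjusted p = 0.197). The glutamate dehydrogenase GDH2 was at 3.38 and 2.75 in HS and at 0.434 and 0.467 in LS, 2.76 ± 0.80 (adjusted p = 0.2). Genes of ammonium assimilation differed less, with GLN1 at 1.22 ± 0.85 (adjusted p = 0.772) and GLT1 at 0.92 ± 0.78 (adjusted p = 0.793). CAR1, the arginase, was at 0.676 and 0.966 in HS and at 1.35 and 2.09 in LS, -1.06 ± 0.88 (adjusted p = 0.793).

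**Figure D3:**
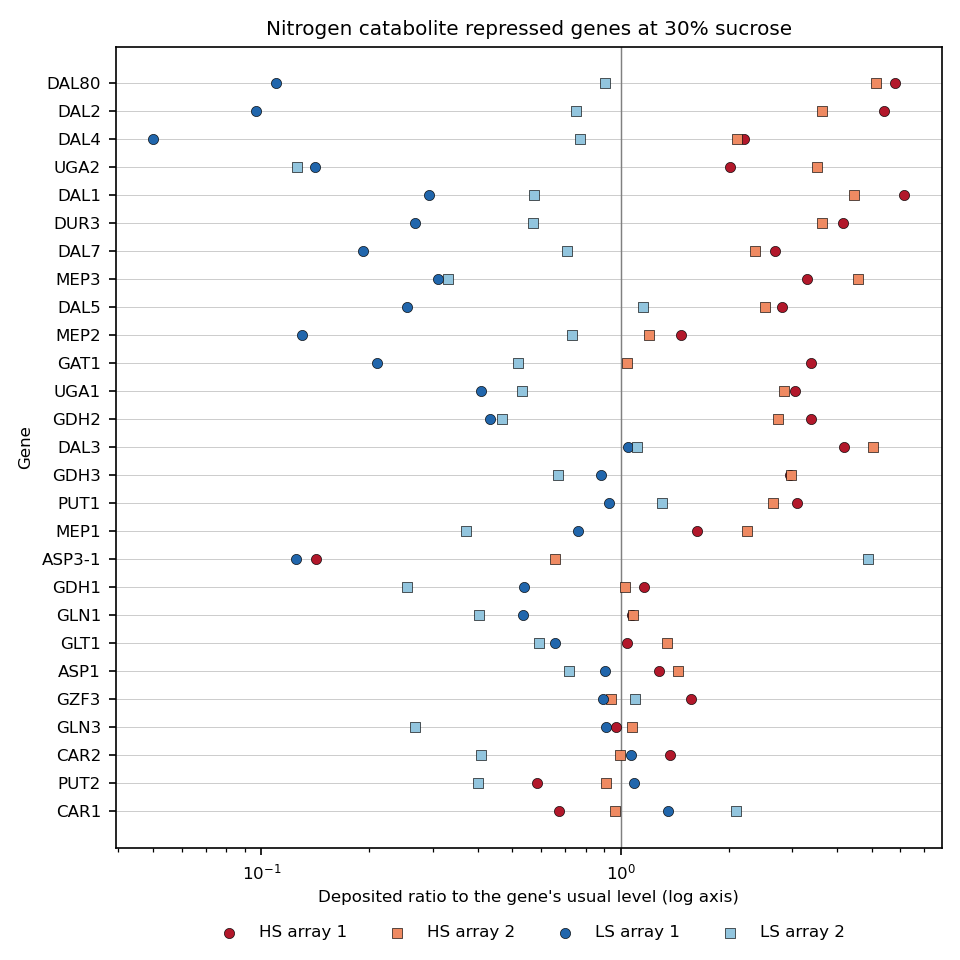
Ratio of each nitrogen catabolite repressed gene on the 4 arrays at 30% sucrose, on a log axis, ordered by the difference from the first LS array. In 22 of the 27 genes both HS arrays (red and orange) lie to the right of both LS arrays (blue), with DAL80 at 5.79 and 5.15 in HS against 0.11 and 0.903 in LS, and the second LS array (light blue squares) often lies nearer to HS than the first.

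Among 25 permeases of amino acids and peptides 14 were above both LS arrays (56%) and 6 below (24%). Over all probe sets these shares were 22.9% and 23%, so the share below was near that of all probe sets. The median over the list was 0.97 (0.62 against the first LS array, 1.80 against the second, and 0.00 with the S. pombe term). The general amino acid permease GAP1, also under nitrogen control, was at 2.02 and 2.08 in HS and at 0.162 and 0.407 in LS, 3.0 ± 0.78 with both LS arrays (adjusted p = 0.156) and 3.66 ± 0.69 in the fit of 22 arrays (adjusted p = 0.0287). UGA4, which takes up gamma-aminobutyrate, was at 2.74 and 2.54 in HS and at 0.239 and 0.97 in LS, and was called in the same fit (3.47 ± 0.68, adjusted p = 0.0329). The peptide transporter OPT2 had ratios of 15.2 and 14.1 in HS against 0.0658 and 2.12 in LS. Its LS arrays lay far apart, so that the difference was 5.29 ± 1.70 with both (adjusted p = 0.269) and 7.80 ± 1.39 in the fit of 22 arrays (adjusted p = 0.0214). DIP5, higher in HS, and BIO5, lower in HS, also belong to this list. MUP1, the methionine permease, was on the other side as well, at 0.492 and 0.648 in HS and 2.69 and 2.22 in LS, and was called lower with the S. pombe term (-2.96 ± 0.68, adjusted p = 0.0403). TAT1, a permease of tyrosine and branched-chain amino acids, was at 0.179 and 1.05 in HS and at 2.3 and 2.57 in LS, -2.49 ± 0.74 (adjusted p = 0.219).

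BIO5 was the vitamin gene called with all arrays, and other biotin genes and part of the thiamine genes had lower values in HS. Of 23 genes for thiamine, pyridoxine and biotin 12 were below both LS arrays (52.2%) and 3 above (13%), against 23% and 22.9% of all probe sets. The list's median was -0.46, and -0.51 against the first LS array. THI13, an enzyme of the thiamine pyrimidine precursor, was at 0.106 and 0.274 in HS and at 7.56 and 6.8 in LS. Its LS arrays were close to each other, and the difference was -5.40 ± 1.26 (adjusted p = 0.107) and -5.47 ± 0.81 in the fit of 22 arrays (adjusted p = 0.00669). The probe set is of the type that can read its near-identical relatives in the THI5 family, so the value belongs to the family rather than the gene. THI4, which forms the thiazole part, was at 0.0899 and 0.339 in HS and at 2.49 and 4.07 in LS, -4.19 ± 1.09 (adjusted p = 0.156) and -3.84 ± 0.68 in the fit of 22 arrays (adjusted p = 0.0213). THI2, an activator of thiamine genes, was at 0.268 and 0.316 in HS and at 3.27 and 0.908 in LS, -3.49 ± 0.69 in that fit (adjusted p = 0.0362). The later enzymes THI6 and THI80 had differences of -0.17 ± 0.68 (adjusted p = 0.951) and 0.41 ± 0.78 (adjusted p = 0.901). BIO5, BIO4 and BIO3 are neighbours on chromosome XIV in the RefSeq annotation, and their differences were -5.37, -1.36 and -2.05. BIO3 was at 0.441 and 1.03 in HS and 2.88 and 2.73 in LS, and BIO4 at 1.09 on both HS arrays and 2.21 and 3.55 in LS, so that neither overlapped. BIO2, the biotin synthase, was at 0.22 and 0.652 in HS and at 2.94 and 2.29 in LS, -2.77 ± 1.22 (adjusted p = 0.545). The pyridoxine genes SNZ1 and SNO1 ran the other way, with SNZ1 at 0.823 and 1.34 in HS and 0.18 and 0.0447 in LS (3.55 ± 1.22, adjusted p = 0.335).

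Of the DNA replication genes RNR3 passed the test with all arrays, and most others had higher values in HS than on the first LS array. Of 35 genes of replication and histones 19 were above both LS arrays (54.3%) and 0 below, against 22.9% and 23% of all probe sets. Above the first LS array were 31 (88.6%), against 43.9% of all probe sets. The median was 0.96, and it was 0.97 against the first LS array, 0.75 against the second and 0.56 with the S. pombe term. RNR3 was the gene of this list called with all 28 arrays, where 0.0364% of all probe sets were called higher. RNR1, the other large subunit of ribonucleotide reductase, was at 2.59 and 1.67 in HS and at 0.0571 and 0.29 in LS, 4.02 ± 1.15 (adjusted p = 0.197) and 5.19 ± 0.68 in the fit of 22 arrays (adjusted p = 0.00401). The small subunits RNR2 and RNR4 differed less, 1.80 ± 1.09 (adjusted p = 0.723) and 1.61 ± 1.63 (adjusted p = 0.816). CDC45, a factor of the replicative helicase, was at 2.0 and 1.22 in HS and at 0.251 and 0.186 in LS, 2.85 ± 0.77 (adjusted p = 0.174) and 2.64 ± 0.41 in the fit of 22 arrays (adjusted p = 0.00851). For CDC6 the order turned with the LS array, at 1.76 and 2.49 in HS, at 0.229 on the first LS array and at 3.01, above HS, on the second. Of 9 histone genes HTB2 and HHT2 were above both LS arrays and the others overlapped, with HTB1 at 0.736 and 0.676 in HS and 0.625 and 3.63 in LS.

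Cyclins of the G1 phase differed between the HS arrays. Of 24 G1 and S phase genes 6 were above both LS arrays, near the 22.9% of all probe sets, and 0 below. Above the first LS array were 14. The median was 0.24 (0.88 against the first LS array, -0.38 against the second and 0.85 with the S. pombe term). CLN1 was at 0.945 and 0.199 in HS and at 0.0798 and 0.0472 in LS, 2.82 ± 0.87 (adjusted p = 0.249), and was called with the S. pombe term (adjusted p = 0.0322). CLN2 overlapped, at 1.11 and 0.224 in HS and 0.258 and 0.0722 in LS (1.87 ± 1.21, adjusted p = 0.742). PCL1, a cyclin of the Pho85 kinase, was at 0.972 and 0.342 in HS and at 0.0594 and 1.03 in LS, so its sign depends on the LS array (1.22 ± 1.25, adjusted p = 0.817, and -0.83 without the first LS array). TOS6, a cell surface protein gene of the G1 regulon, was at 0.992 and 0.141 in HS and at 0.0151 and 0.0199 in LS, 4.63 ± 0.94 in the fit of 22 arrays (adjusted p = 0.0389). In CLN1, CLN2 and TOS6 the first HS array was several-fold above the second, a gap as wide as that between the yeasts in CLN2.

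Many amino acid synthesis genes had higher values in HS, while the fits of 28, 27 and 22 arrays and the fit with the S. pombe term called 0 genes of the lists for lysine, histidine, arginine, branched-chain and aromatic amino acids. Of 30 genes for arginine, branched-chain and aromatic amino acids 24 were above both LS arrays and 0 below, and 29 were above the first. Their median was 1.11 (0.70 against the first LS array, 1.67 against the second and 0.53 with the S. pombe term). In limma with 28 arrays 0 were called and 4 were higher at an unadjusted p of 0.05. BAT2, the cytosolic branched-chain aminotransferase, read 2.17 and 2.13 in HS and 0.364 and 0.513 in LS, 2.32 ± 0.77 (adjusted p = 0.304). ARG1, argininosuccinate synthetase, was at 1.36 and 1.33 in HS and at 0.197 and 0.144 in LS, 3.0 ± 1.19 (adjusted p = 0.453). HS arrays nearly coincided for both genes and lay above both LS arrays. Of 9 lysine genes 5 were above both LS arrays and 9 above the first (median 0.95, 1.21 against the first and 0.69 with the S. pombe term). LYS9, a saccharopine reductase, was at 1.31 and 1.11 in HS and at 0.106 and 0.223 in LS, 2.97 ± 0.86 (adjusted p = 0.202). LYS21, a homocitrate synthase, was at 1.23 and 0.87 in HS, at 0.324 on the first LS array and at 3.62 on the second, so the order turned with the LS array. Of 7 histidine genes 4 were above both LS arrays and 0 below (median 0.61, 0.60 against the first and 0.18 with the S. pombe term).

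Iron, mannoprotein and mating genes had differences of both signs. Among 28 genes of iron and copper uptake 9 were above both LS arrays (32.1%) and 4 below (14.3%), against 22.9% and 23% of all probe sets. Their median was 0.87 (0.04 against the first LS array and -0.17 with the S. pombe term). The cell wall mannoproteins FIT1 and FIT2, which hold iron-siderophores, opposed each other. FIT1 was at 0.297 and 0.337 in HS and at 3.01 and 1.35 in LS (-3.25 ± 0.66 in the fit of 22 arrays, adjusted p = 0.0389). FIT2 was at 2.0 and 1.49 in HS and at 0.0466 and 0.378 in LS (5.21 ± 0.67 in the same fit, adjusted p = 0.00401). The reductase FRE4 was at 0.503 and 1.18 in HS and at 3.01 and 15.5 in LS, -3.15 ± 1.01 (adjusted p = 0.269). Of 11 DAN and TIR genes, mannoproteins of cold and low oxygen and their companions, 6 were above both LS arrays and 1 below (median 1.42, and 1.12 against the first LS array), and TIR1 and ANB1 were called higher in the fit of 22 arrays. TIR1 was at 1.4 and 0.936 in HS and at 0.18 and 0.491 in LS (2.67 ± 0.56 there, adjusted p = 0.0426). DAN1 was the gene below both, at 0.333 and 0.332 in HS and 0.549 and 1.0 in LS (-1.16 ± 1.03, adjusted p = 0.8). With the S. pombe term the median over the DAN and TIR genes was 0.62. The alpha-factor gene MF(ALPHA)1 was at 1.38 and 1.11 in HS and at 0.093 and 0.0339 in LS, 4.46 ± 1.11 (adjusted p = 0.133) and 3.74 ± 0.58 in the fit of 22 arrays (adjusted p = 0.00851). The a-factor gene MFA1 read 0.582 and 0.973 in HS, 0.82 on the first LS array and 18.9 on the second (-2.39 ± 1.48, adjusted p = 0.728). STE2, the alpha-factor receptor, overlapped and turned sign between the LS arrays (1.13 ± 0.93, adjusted p = 0.793, and -0.39 against the first).

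Outside the lists, some of the widest gaps against the first LS array came from single genes, chosen here after their values were seen. YHB1, the flavohemoglobin that removes nitric oxide, was at 4.13 and 4.49 in HS and at 0.0857 and 0.316 in LS, 4.71 ± 1.12 (adjusted p = 0.107) and 5.65 ± 0.56 in the fit of 22 arrays (adjusted p = 0.000883). HMX1, the heme oxygenase, was at 0.225 and 0.118 in HS and at 1.56 and 2.84 in LS, -3.69 ± 0.83 (adjusted p = 0.0872) and -3.26 ± 0.57 in that fit (adjusted p = 0.0213). ENA5, a sodium export pump, was at 0.611 and 0.954 in HS and at 8.43 and 75.7 in LS, -5.05 ± 1.12 (adjusted p = 0.084), and was called with the S. pombe term (adjusted p = 0.0378). ENA5 has near-identical copies, and its signal may be shared with them. For all of these the groups did not overlap. YIL014C-A read 6.76 and 3.93 in HS, 0.601 on the second LS array and 0.01 on the first, which is the lowest value in the table, so its 9.01 in the fit of 22 arrays rests on a value at the floor.

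Some large lists stood differently against the LS arrays. All 127 measured cytosolic ribosomal protein genes were higher on both HS arrays than on the first LS array. Against the second, 112 were lower on both HS arrays and 14 higher. Their median ratio was 1.04 and 0.89 on the HS arrays, 0.66 on the first LS array and 5.48 on the second. The median difference was therefore 0.55 against the first and -2.55 against the second, and 0 were called in any of the fits of 28, 27 and 22 arrays or with the S. pombe term, with 0 at an unadjusted p of 0.05 in that of 28. Ribosome biogenesis genes did not share this, with 28 of 51 above both LS arrays and 2 below, but their median of 0.55 was 0.27 against the first LS array and -0.10 with the S. pombe term. Genes of glycolysis and ethanol formation had medians of 0.59 and -0.37 against the first and second LS array, and heat shock proteins of 0.20 and -0.57.

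The fit of 28 arrays called 0 genes of the remaining lists, and their medians depended on the LS array. Of 33 proteasome genes 15 were above both LS arrays and 3 below, with a median of 0.50 with both LS arrays, 0.21 against the first and -0.05 with the S. pombe term. Of 26 ergosterol genes 14 were above both and 4 below (0.36, 0.27 and -0.06 in the same order), of 13 genes of fatty acid synthesis and elongation 8 and 1 (0.99, 0.37 and 0.09), and of 36 cell wall genes 17 and 9 (0.67, 0.25 and 0.00). All 4 medians were thus smaller against the first LS array and near 0 with the term. The 9 cell wall genes below both LS arrays (25%) were near the 23% of all probe sets. Of 16 genes of the tricarboxylic acid cycle 10 were below both LS arrays and 3 above (-1.13, -0.68 and -0.87). The 3 above (18.8%) were near the 22.9% of all probe sets. Of 28 vacuolar hydrolase and autophagy genes 14 were below both and 2 above (-1.14, -0.63 and -0.75). With the S. pombe term 1 gene of that list was called higher in HS and 0 lower. Of 26 antioxidant genes 11 were below both and 2 above (-0.76, -0.33 and -0.98). The 17 subtelomeric genes, of which 8 were below both, turned sign, with a median of -1.18 with both LS arrays, 0.16 against the first and -0.26 with the term. The medians with both LS arrays and with the first were -0.42 and -0.32 over 30 sulfate and methionine genes, -0.29 and -0.06 over 23 phosphate genes, -0.62 and -0.15 over 22 mitotic genes, and -0.39 and -0.05 over 28 mating genes. They were -0.81 and -0.12 over 24 meiosis genes, -0.25 and 0.01 over 65 mitochondrial ribosomal proteins, 0.23 and 0.07 over 14 flocculin genes, and 0.14 and 0.04 over 22 multidrug transporters.

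**Figure D4:**
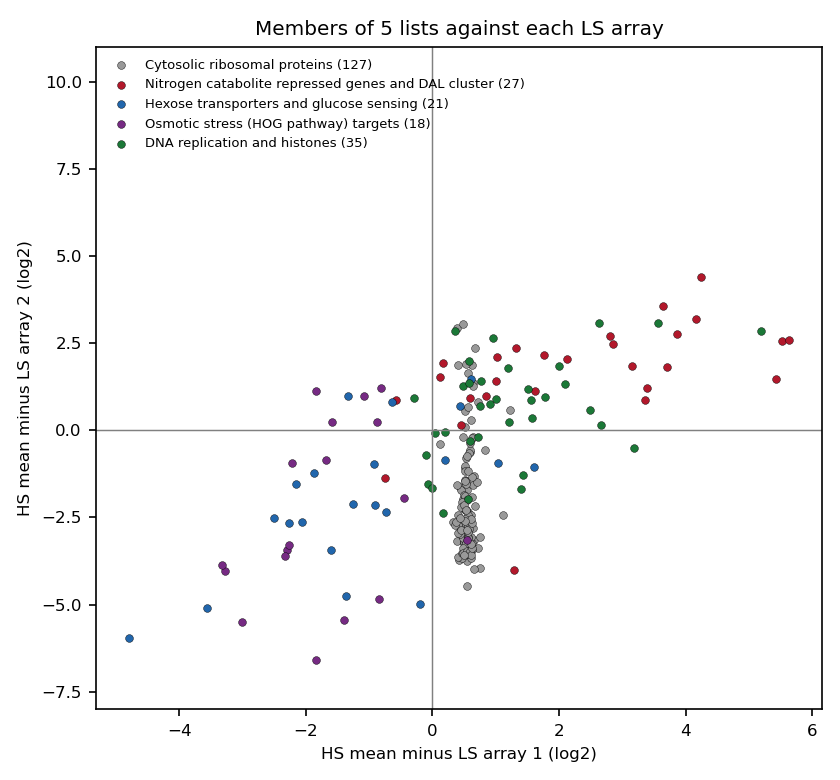
Each point is a gene of 1 of 5 lists, placed by the HS mean minus the first LS array (horizontal, log2) and the HS mean minus the second (vertical, log2). Nitrogen genes (red) fall mostly in the upper right, and HOG targets (purple) and hexose transporters (blue) mostly in the lower left. For most of these genes the HS mean thus lies on the same side of both LS arrays. Both axes use the same HS mean, so the place of a point is no separate check of the LS arrays against each other. Ribosomal proteins (grey) lie right of 0 and mostly far below it (medians 0.55 and -2.55).

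The differences at 30% sucrose were set against those at lower and higher concentrations. No probe set passed the threshold with 28 arrays in limma for 30% against the mean of 5, 10 and 20% (0%, with 118, which is 2.15%, at an unadjusted p of 0.05) or for 30% against 40% (0%, with 282, which is 5.13%). In the fit of 22 arrays 6 were called for the first (0.109%) and 62 for the second (1.13%), 48 of them higher (0.873%) and 14 lower (0.255%). The contrasts share the arrays at 30%.

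GAL10 stood apart at 30% from 5 to 20% sucrose, and GAL1 at 30% from 40%, in the fit of 22 arrays. The HS minus LS difference of GAL10 was -5.60 at 0%, -0.22 at 5%, -1.01 at 10% and -1.79 at 20%. It was -5.00 at 30%, -6.86 at 40% and -7.11 at 50%. These are differences with all 28 arrays. In the fit of 22 arrays the difference of GAL10 was -6.51 at 0%, -1.07 at 5%, -0.62 at 10%, -0.53 at 20% and -4.37 at 30%. A wide gap was thus also present without sucrose, with GAL10 at 0.341 and 0.451 in HS and 35.7 and 10.1 in LS. The difference at 30% minus the mean of those at 5 to 20% was -3.99 ± 0.95 with all arrays, not called, and -3.63 ± 0.57 in the fit of 22 arrays (adjusted p = 0.0371). Set against 40% it was 2.49 ± 0.63 in that fit (adjusted p = 0.0898), short of a call. LS reached ratios of 174 and 77.6 at 40% where HS stood at 0.938 and 1.06. GAL1 had a difference of -3.54 at 30% and -7.47 at 40%, with ratios in LS of 71.2 and 65.4 at 40%, and the former minus the latter was 3.93 ± 1.18 with all arrays (adjusted p = 0.762) and 5.09 ± 0.65 in the fit of 22 arrays (adjusted p = 0.00395). Against 5 to 20% GAL1 was at -2.35 ± 0.96 with all arrays and at -0.92 ± 0.58 in the fit of 22 arrays (adjusted p = 0.613), not called in either. Without sucrose the difference of GAL1 was -3.47, close to its value at 30%. The median over the galactose list was -1.34 at 0%, -1.87 at 20%, -2.04 at 30% and -5.48 at 40%.

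STL1 and FRE4 had lower mean values in HS from 5 to 30% sucrose and higher mean values at 40%. In the fit of 28 arrays FRE4 passed the threshold at 40% (adjusted p = 0.00934) and STL1 did not. FRE4 was lower in HS at 0% as well (-4.92, adjusted p = 0.0268). The difference of STL1 was -4.23 at 5%, -4.19 at 10%, -5.47 at 20%, -4.85 at 30% and 0.90 at 40% (adjusted p = 0.698 at 40%). HS stood at ratios of 11.3 and 4.78 at 40%, where LS stood at 4.32 and 3.58. The difference at 30% minus that at 40% was -5.75 ± 1.22 with all arrays (adjusted p = 0.218), short of a call. FRE4 had a difference of -3.15 at 30% and of 5.07 at 40%, and the former minus the latter was -8.22 ± 1.43 with all arrays (adjusted p = 0.0509), and of -7.04 ± 1.38 in the fit of 22 arrays (adjusted p = 0.0411). BIO5 and QCR8 had negative mean differences at every concentration from 0 to 50%, QCR8 from -2.75 at 0% to -7.59 at 40%. BIO5 overlapped at 50%, at 0.16 and 0.0966 in HS and 2.31 and 0.0821 in LS.

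DIP5 and the nitrogen list had larger differences at 20 and 30% than at 40%. The difference of DIP5 was 0.43 at 5%, 0.83 at 10%, 3.29 at 20%, 4.73 at 30% and 1.22 at 40%, and its difference at 30% was called in the fit of 22 arrays against 5 to 20% (5.6 ± 0.92, adjusted p = 0.0498) and against 40% (5.67 ± 1.03, adjusted p = 0.0378). These 2 values of DIP5 rest on its ratio of 0.0239 on the first LS array at 30%, below the 0.243 to 2.65 of the other LS arrays. In the fit of 22 arrays the difference of DIP5 was 0.23 at 5%, 0.90 at 10%, 2.72 at 20% and 6.89 at 30%. At 0% sucrose the sign of DIP5 was opposite, at -5.50 with all 28 arrays (adjusted p = 0.0173). The median over the nitrogen list was 0.68 at 5%, 1.48 at 10%, 1.91 at 20%, 2.09 at 30%, 0.78 at 40% and -0.27 at 50%. MF(ALPHA)1 had a difference of 2.06 at 5%, 0.22 at 10% and -0.45 at 20%, below its 4.46 at 30%, and 30% against 5 to 20% gave 4.37 ± 0.67 in the fit of 22 arrays (adjusted p = 0.0371). The other genes called there were RNR1 and YDL241W, higher, and YLR345W, lower. For MF(ALPHA)1 the differences given at single concentrations are those of all 28 arrays. In the fit of 22 arrays they were -0.72 at 5%, -0.10 at 10%, -1.10 at 20% and 3.74 at 30%. With all 28 arrays its difference at 30% against 5 to 20% was 3.85 ± 1.28, not called.

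**Figure D5:**
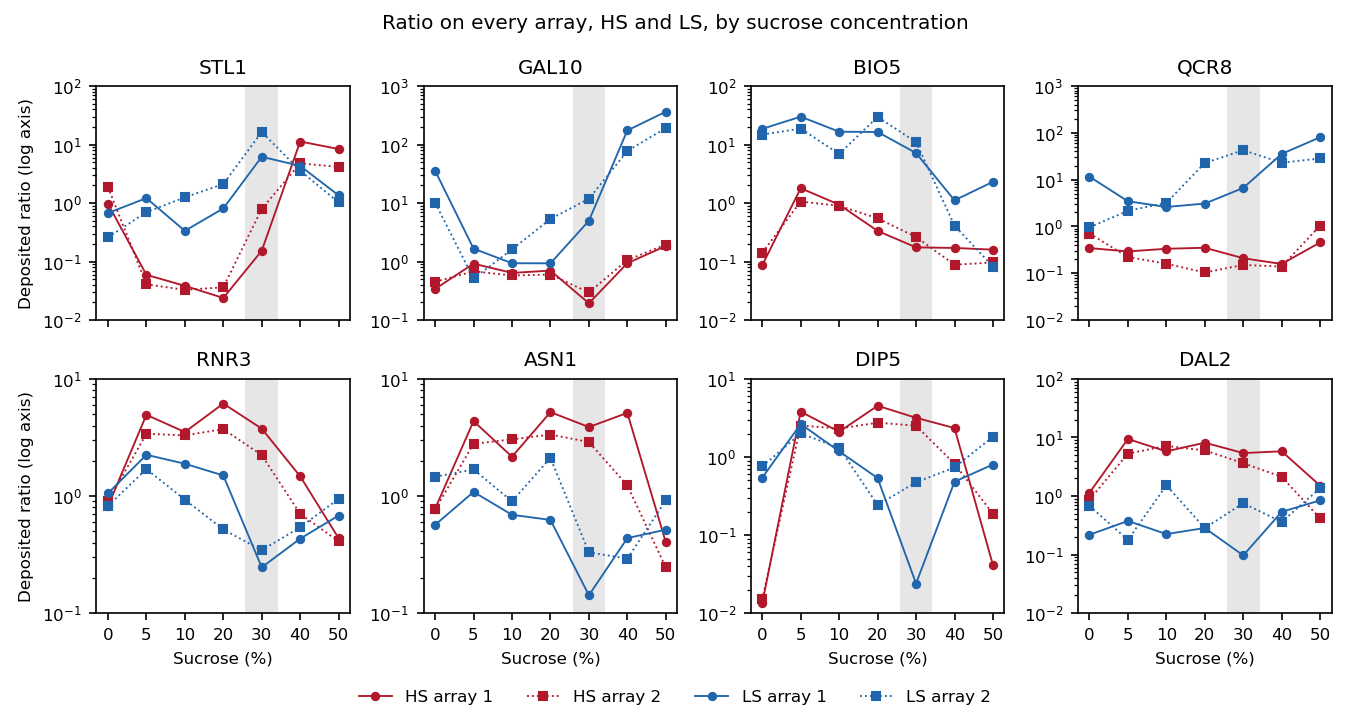
Ratio (log axis) of 8 genes on every array by sucrose concentration, HS in red and LS in blue, with circles and solid lines for the first and squares and dotted lines for the second array of a group, and 30% shaded. STL1 in HS is low up to 30% and reaches 11.3 and 4.78 at 40%, GAL10 in LS reaches 174 and 77.6 at 40%, and DIP5, ASN1, RNR3 and DAL2 have HS above LS at 30%.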

How the data were processed

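RNA levels of both yeasts at 7 sucrose concentrations were read on 28 arrays, of which the 4 at 30% are compared here. The deposited values are a normalized ratio on a linear scale, per the labels. Per the series design text, the authors scaled each chip on genes of positive value, leaving out S. pombe, and then each gene, in GeneSpring 7.0. Among deposited values, 97.7% of S. cerevisiae probe sets have a median ratio of 1 within 0.006, and values run from 0.01 to 532.3. How probes were summarised was not stated in the sources used here. Signal over background is not known from these ratios, so the number of arrays sets the precision.

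Of 10928 probe sets 5498 had 1 S. cerevisiae symbol (5449 genes), 1746 an S. pombe symbol, 3683 none and 1 several. Symbols came from the platform annotation, and 12 outdated ones were updated through the RefSeq gene table, which also gave neighbours.

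Log2 ratios were fitted as deposited with limma 3.58.1 in R 4.3.3, 1 mean for each of the 14 groups, and variances were moderated (residual degrees of freedom 14, prior 5.41). Each 2-sided p was adjusted over the 5498 probe sets after Benjamini-Hochberg, and a gene is called below an adjusted p of 0.05. The sources do not name a batch. Same-numbered HS and LS arrays at 30% did not deviate in the same direction (r = -0.264), and the main fit does not pair them. This r is across probe sets of 4 arrays and cannot show whether the numbers pair HS with LS arrays. Within LS the numbers tie arrays across concentrations: the replicate deviation at 30% correlated with that at 0, 5, 10, 20 and 50% with r of 0.335 to 0.714, and with that at 40% with r = -0.15. The main fit treats the arrays as independent, so its p-values leave this tie out.

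Lists (40) used 1 probe set per gene and are described by counts and medians. Members and lists were chosen with earlier results of these data known. Named were up to 12 called genes per direction without overlap, up to 8 more called without the second LS array, up to 4 called members of lists with 2 or more calls, up to 3 called per direction in each comparison between concentrations, and 23 picked genes. List members beyond these, and genes outside lists, were named after their values were seen, and some names were left out for length. Alternatives were leaving out each array at 30% or the 6 LS arrays of raised S. pombe signal, only the compared groups, quantile normalization, median centring, array weights, robust moderation with a variance trend, an offset of 0.0564 added to each ratio, a replicate block, a filter that left 5345 probe sets (median of at least 0.99), and S. pombe probe sets included. Chosen after seeing the data were the term for raised S. pombe signal and a crossed block. Figures were drawn with matplotlib 3.10.9.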

Additional observations from a re-analysis of the deposited data

Results flagged for a closer look

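The HS minus LS difference at 30% sucrose differed from that at other concentrations, by a test of the difference itself, for a few of the named genes once the 6 LS arrays of raised S. pombe signal were left out (22 arrays, limma). Against the mean difference at 5, 10 and 20% sucrose, GAL10 was lower by -3.63 ± 0.57 (log2, adjusted p = 0.0371), DIP5 higher by 5.6 ± 0.92 (adjusted p = 0.0498) and MF(ALPHA)1 higher by 4.37 ± 0.67 (adjusted p = 0.0371). Against the difference at 40% sucrose, DIP5 was higher by 5.67 ± 1.03 (adjusted p = 0.0378), GAL1 higher by 5.09 ± 0.65 (adjusted p = 0.00395) and FRE4 lower by -7.04 ± 1.38 (adjusted p = 0.0411). With the term for raised S. pombe signal, FRE4 was lower by -8.0 ± 1.40 (adjusted p = 0.0195). None of these passed the threshold in the fit of 28 arrays without that term. The 2 values of DIP5 rest on a ratio of 0.0239 on the first LS array at 30%. The second LS array at 30% sucrose had an S. pombe median ratio of 1.59, above the range of 0.119 to 0.994 on the 22 arrays outside the raised set, in probe sets that enter the comparisons only in 1 alternative.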

How the results depend on the processing

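The count of probe sets called between HS and LS at 30% sucrose depended on the arrays and on the fit. It was 8 with all 28 arrays and 0 to 58 with 1 array at 30% left out (1 without the second LS array, 58 without the first, 0 without the first HS array and 1 without the second). It was 72 in the fit of 22 arrays, 51 with the term for raised S. pombe signal (chosen after seeing the data), 135 after quantile normalization, 13 with a replicate block, 4 with array weights, and 0 with only the compared groups, with a variance trend and robust moderation, or with S. pombe probe sets included, where 469, 430 and 443 passed an unadjusted p of 0.05 in limma. It was 10 after median centring, 12 with an offset and 9 with the filter on low values. A block on crossed numbers, chosen after seeing the data, gave 10. The median difference of all probe sets was -0.08 with all arrays and 0.11 after quantile normalization. The cause of these moves was not tested.

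For 30% against 5 to 20% the count was 0 with all arrays, 0 to 7 with 1 array left out (7 without the first LS array), 6 in the fit of 22 arrays and 0 under the other alternatives, the replicate block among them. For 30% against 40% it was 0, 0 to 7 with 1 array left out (7 without the first LS array), 62 in the fit of 22 arrays, 12 with array weights, 7 after quantile normalization, 6 with the S. pombe term, 1 after median centring, 2 with the offset, 2 with the variance trend, 2 with the filter, and 0 with the replicate block.

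Of 496 differences of named genes over these alternatives, 418 kept direction and side of the threshold, 55 lost a call, 14 gained one and 9 turned sign. None of the turned ones was called. The 418 include genes that were not called in the main fit and stayed so. For the 8 genes called with all arrays, over 16 settings, 73 differences stayed called and 55 did not. Of these 8 genes 0 stayed called without the second LS array, without the first HS array or with only the compared groups. The same held with a variance trend and robust moderation, and with S. pombe probe sets included. With 1 array left out, FPS1 ran from -0.55 to 0.41, HXT1 from -0.84 to 0.20, FBP1 from -1.43 to 0.15, PCL1 from -0.83 to 3.28 and STE2 from -0.39 to 2.65. HXT1 also turned in the fit of 22 arrays (0.20) and after quantile normalization (0.17), and STE2 in the fit of 22 arrays (-0.39). Of 640 list medians 122 moved by more than the spread between replicates.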
